A study of Mus musculus with 6 samples.

Results

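Mouse oocytes exposed to Sudan I were set against unexposed control oocytes, gene by gene, to find which functions of the oocyte's RNA store differed and which were measured closely enough to be called unchanged. The members were chosen by label: 2 control and 2 Sudan I libraries, 4 of the 6 in the series. All groups were oocytes with an intact germinal vesicle, the large nucleus held before the first meiotic division resumes; the control group had no stated agent, the Sudan I group had the dye, and the remaining 2 libraries, from oocytes given Sudan I and melatonin, entered the fit only to estimate the spread. Of strain, age, dose, route and exposure time the sources used here say nothing. Nor do the labels tell whether libraries of a group came from different mice or from pooled oocytes; p-values therefore reflect the spread among these libraries only, which may be technical.

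Sudan I is a synthetic azo dye of industrial use that has turned up illegally in food, and it is an agonist of the aryl hydrocarbon receptor, a ligand-activated transcription factor. On binding a ligand the receptor pairs with its partner ARNT and switches on enzymes of foreign-compound metabolism, the cytochrome P450 genes of the Cyp1 family first. A fully grown oocyte is nearly silent in transcription and lives on messages stored during growth, so that a difference in level can come from growth-phase transcription or from decay of stored RNA. The series title names mitochondrial dysfunction, oxidative stress and apoptosis in exposed oocytes, and the comparison asks how far the RNA of genes with those functions differed.

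Library totals were 21993198 and 26065453 counts in the control group and 24263428 and 21873655 in the Sudan I group, with 16727 to 17006 genes detected. Levels are given as CPM, the usual rescaling of counts by library depth, here over tested genes and after a correction for composition; they are not divided by transcript length and are compared between libraries only, not between genes. The labelled cell type was checked against its markers: the 11 oocyte markers summed to 25303 to 28080 CPM per library. The 13 markers of cumulus and granulosa cells, which surround the oocyte, summed to 631 to 679 CPM, the 3 endothelial markers to 83.2 to 105.1 CPM, the 6 of theca and stroma to 1.83 to 3.22 CPM and the 5 of blood and immune cells to 0.837 to 1.504 CPM, with Ptprc, Hba-a1 and Hbb-bs at 0 counts in all 4 libraries. Most of the endothelial sum was Pecam1 (78.4 to 97.9 CPM), with Kdr at 4.10 to 8.69 CPM and Cdh5 at 0 to 0.225 CPM. Across 14124 genes, which are not independent replicates, log2 levels correlated at 0.984 within the control pair, 0.983 within the Sudan I pair and 0.980 to 0.987 between the groups. The between-group range took in both within-group values.

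Tex15 rose in Sudan I oocytes. This germ-cell gene is needed in male mice for meiotic recombination and for silencing of transposons through piRNAs. It stood at 16.6 and 12.5 CPM in the control libraries and at 101 and 78.7 CPM in the Sudan I libraries, so that the lowest exposed library was several times above the highest control. The fold change was 6.17 (95% interval 4.76 to 7.998), a log2 fold change of 2.63 (SE 0.17), with an adjusted p of 0.000377 in edgeR's quasi-likelihood test with Benjamini-Hochberg adjustment. In the libraries given melatonin as well, Tex15 stood at 85.0 and 80.5 CPM, inside the Sudan I range. The gene spans chromosome 8 from 33516738 to 33585582 on the forward strand of GRCm38, and no other annotated gene overlaps it.

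Tex15 was the single gene of 14124 called at an adjusted p under 0.05, or 0.00708%, and the next smallest adjusted p was 0.1004. DESeq2 called 12 of 13857 genes, or 0.0866%, 5 higher and 7 lower in Sudan I oocytes, with Tex15 among them; limma-voom called Tex15 alone. An unadjusted p under 0.05 was reached by 447 genes, 3.16% of those tested, split into 228 higher and 219 lower. The median log2 fold change over all tested genes was -0.0024, and 49.4% of them were higher in Sudan I oocytes. The spread of fold changes narrowed as the level rose, as the plot of fold change against level shows.

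**Figure D1:**
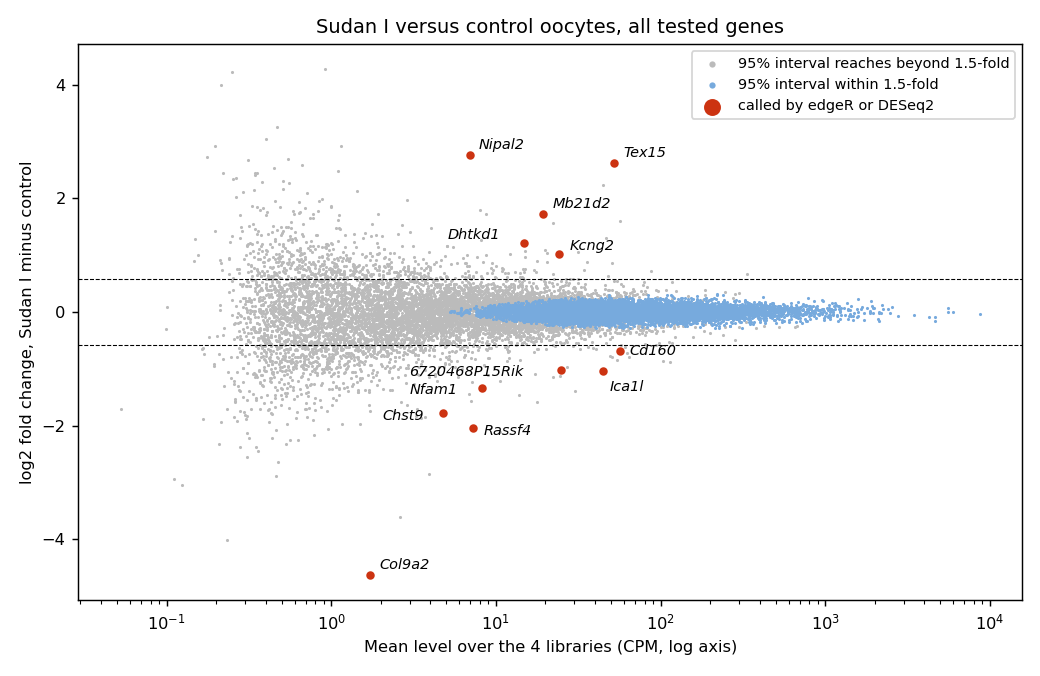
Log2 fold change (Sudan I minus control, vertical axis) against the mean level over the 4 libraries (CPM, log axis) for 14124 tested genes; each point is 1 gene, and dashed lines mark a 1.5-fold difference. Tex15 (log2 fold change 2.63) and the other genes called by edgeR or DESeq2 are in red, and genes whose 95% interval stayed within 1.5-fold, in blue, lie mostly above 10 CPM.

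Of the genes called by DESeq2, those higher in Sudan I oocytes besides Tex15 were Nipal2, Mb21d2, Dhtkd1 and Kcng2, none of them past the threshold in edgeR. Nipal2, of a family of magnesium transporters, stood at 1.91 and 1.64 CPM in control and 8.08 and 16.1 CPM in Sudan I libraries. Its log2 fold change was 2.77 (SE 0.35, edgeR adjusted p = 0.1004, DESeq2 adjusted p = 4.81e-10). Mb21d2, which encodes a protein with a Mab-21 domain, stood at 9.48 and 8.46 CPM in control and 20.6 and 38.9 CPM in Sudan I libraries, and its log2 fold change was 1.73 (SE 0.27; edgeR adjusted p = 0.282, DESeq2 adjusted p = 2.20e-06). In both genes the groups did not overlap, as in 32% of all tested genes, and the second Sudan I library was the higher of its pair. With melatonin Mb21d2 stood at 10.5 and 9.31 CPM, next to the control level, whereas Nipal2 stood at 8.99 and 12.2 CPM, within the Sudan I range. Dhtkd1, a mitochondrial enzyme of lysine breakdown, stood at 11.1 and 6.71 CPM in control and 23.7 and 17.5 CPM in Sudan I libraries (log2 fold change 1.22, SE 0.26, edgeR adjusted p = 0.9999, DESeq2 adjusted p = 0.0108). Kcng2, a modifier subunit of voltage-gated potassium channels, stood at 15.2 and 16.5 CPM, then 22.7 and 41.8 CPM (log2 fold change 1.02, SE 0.25, edgeR adjusted p = 0.9999, DESeq2 adjusted p = 0.0497).

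The genes lower by DESeq2 were Ica1l, Rassf4, Col9a2, Cd160, Nfam1, Chst9 and 6720468P15Rik. Ica1l, related to the islet cell autoantigen ICA1, stood at 64.9 and 55.2 CPM in control and 26.4 and 31.9 CPM in Sudan I libraries, and its log2 fold change was -1.04 (SE 0.15; edgeR adjusted p = 0.224, DESeq2 adjusted p = 6.26e-06). With melatonin Ica1l stood at 27.0 and 25.0 CPM, as low as with Sudan I alone. Rassf4, of the Ras-association family, stood at 11.4 and 12.0 CPM in control, 2.01 and 3.70 CPM in Sudan I and 8.74 and 14.4 CPM in melatonin libraries, so that the Sudan I pair lay below both other pairs. Its log2 fold change was -2.04 (SE 0.33, edgeR adjusted p = 0.293, DESeq2 adjusted p = 7.10e-06). Col9a2, a chain of collagen IX, had 70 and 90 counts in the control group but 6 and 0 in the Sudan I group. On the Sudan I side its fitted log2 fold change of -4.62 (SE 0.88, DESeq2 adjusted p = 5.65e-05) thus rests on 1 library with any counts. The melatonin libraries had 38 and 28 counts.

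Cd160, a receptor of natural killer and T cells, stood at 67.1 and 72.7 CPM in control, 47.6 and 39.0 CPM in Sudan I and 71.5 and 72.9 CPM in melatonin libraries (log2 fold change -0.69, SE 0.13). It was measured here although the blood and immune markers were near 0. Nfam1, a receptor of the immune system, stood at 12.9 and 10.6 CPM and then 3.77 and 5.55 CPM (log2 fold change -1.34, SE 0.26). Chst9, a sulfotransferase of carbohydrates, stood at 6.88 and 7.96 CPM and then 1.30 and 3.07 CPM (log2 fold change -1.77, SE 0.41), and 6720468P15Rik at 35.4 and 30.9 CPM and then 12.0 and 20.6 CPM (log2 fold change -1.02, SE 0.23). DESeq2 adjusted p for these 4 genes ran from 0.0108 to 0.0315, and edgeR adjusted p from 0.801 to 0.9999. On the opposite strand Ica1l overlaps Fam117b, Cd160 overlaps Pdzk1, Nipal2 overlaps 4930413F20Rik, Dhtkd1 overlaps Gm13267, Rassf4 overlaps Depp1, and Kcng2 overlaps Gm26676 and D330025C20Rik in the annotation; whether reads were counted by strand is not stated, so reads may be shared between partners.

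**Figure D2:**
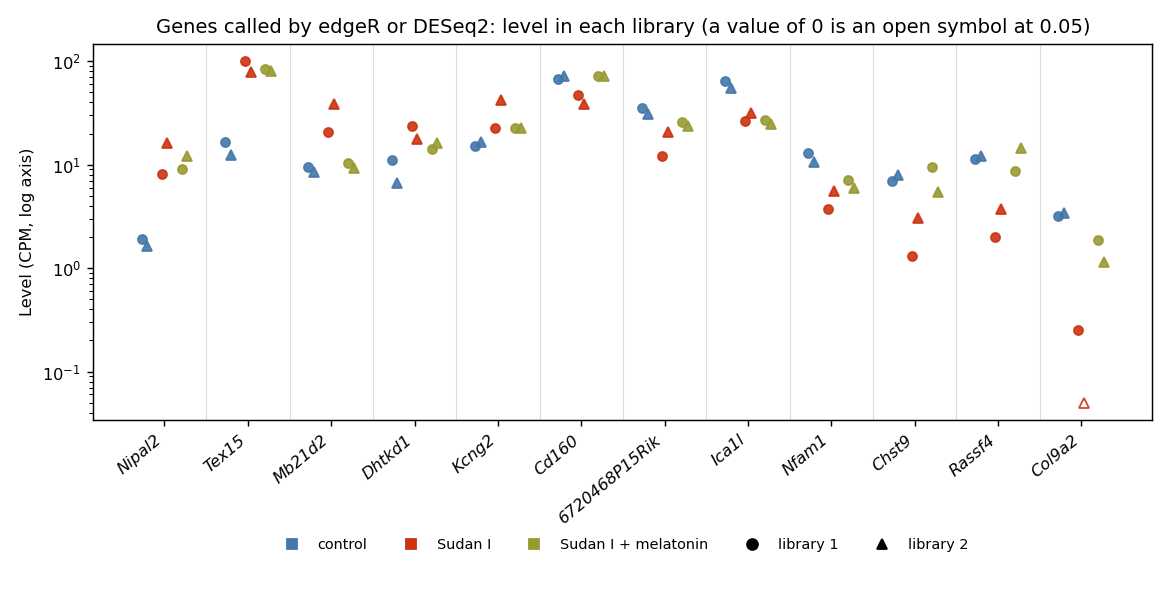
Level of each of the 12 genes called by edgeR or DESeq2 in every library (CPM, log axis), with circles for library 1 and triangles for library 2 of each group. The Sudan I and control libraries did not overlap in any of the 12, which were picked by tests on these same libraries (all tested genes: 32% without overlap). The melatonin libraries of Tex15 lay with Sudan I (85.0 and 80.5 CPM) and those of Mb21d2 with control (10.5 and 9.31 CPM).

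Because Sudan I acts on the aryl hydrocarbon receptor, the promoters of the called genes were searched for GCGTG, the core letters that the receptor and ARNT bind, on both strands (CACGC on the other). RefSeq promoters, 300 bases long and of build GRCm38.p6, were listed for 8 of the 12 called genes, and 5 of these 8 held the letters in at least 1 promoter: Mb21d2, Rassf4, Dhtkd1, Cd160 and 6720468P15Rik. Of the tested genes with a listed promoter, 54% held them in at least 1, and of all genes with a listed promoter 35.2%. Counted by promoter, the shares were 41.7% for the called genes, 48.4% for the tested genes and 32.4% for all listed promoters. The promoters of Mb21d2 (chr16:28929649-28929948, reverse strand), higher with Sudan I, and Rassf4 (chr6:116673787-116674086, reverse strand), lower with Sudan I, are printed 5′ to 3′ because these 2 genes had the largest fold changes, up and down, among those with the letters; capitals mark GCGTG or CACGC.
Mb21d2: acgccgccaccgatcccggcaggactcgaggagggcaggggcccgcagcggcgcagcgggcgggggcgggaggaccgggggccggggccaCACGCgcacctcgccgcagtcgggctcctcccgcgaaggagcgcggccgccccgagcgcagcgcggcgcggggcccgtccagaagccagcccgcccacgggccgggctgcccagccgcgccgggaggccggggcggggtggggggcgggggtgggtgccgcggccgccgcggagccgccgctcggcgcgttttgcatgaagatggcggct
Rassf4: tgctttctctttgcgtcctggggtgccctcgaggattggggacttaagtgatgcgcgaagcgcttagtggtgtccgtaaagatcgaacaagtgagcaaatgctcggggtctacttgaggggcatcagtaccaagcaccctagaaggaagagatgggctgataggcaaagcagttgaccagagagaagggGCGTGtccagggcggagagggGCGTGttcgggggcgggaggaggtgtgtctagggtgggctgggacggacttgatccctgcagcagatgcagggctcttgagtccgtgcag

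The remaining genes with the smallest p among those of at least 5 CPM whose groups did not overlap were called by neither test (edgeR adjusted p = 0.9999 each). On the higher side these were Pde1a, a calcium-dependent phosphodiesterase, at 3.46 and 3.05 CPM in control and 7.50 and 9.29 CPM in Sudan I libraries, the adhesion gene Cdh2, the cation channel gene Trpa1, the zinc-finger gene Zfp345 and the unnamed locus Gm17830. On the lower side they were Ikbkg, the regulatory subunit of the IκB kinase, at 11.3 and 14.6 CPM and then 6.62 and 6.67 CPM, the vesicle gene Scamp5, Gin1, Prrc2b and the transcription factor Egr1. Ikbkg overlaps G6pdx, Gin1 overlaps Ppip5k2, Cdh2 overlaps Gm15485 and Prrc2b overlaps Gm13610 on the opposite strand. Their log2 fold changes ran from 0.53 (Zfp345, SE 0.13) to 1.57 (Gm17830, SE 0.38) on the higher side and from -0.57 (Egr1, SE 0.15; Scamp5, SE 0.14) to -1.21 (Prrc2b, SE 0.31) on the lower.

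A p-value that misses a threshold does not show that a gene did not differ, so the 95% interval of each gene was also set against a stated fold of no difference; a gene whose whole interval lay inside is called held within that fold. The interval lay within 1.5-fold for 6898 genes (48.8%) and within 2-fold for 9872 genes (69.9%). This depended on level. At 100 CPM and over, 97.7% of 2489 genes were held within 1.5-fold and 99.8% within 2-fold, and none had a fitted difference beyond 2-fold. From 10 to 100 CPM the shares were 74.7% and 97.0% of 5786 genes, with 23 fitted differences beyond 2-fold, and from 1 to 10 CPM they were 3.43% and 42.6% of 4167 genes. Under 1 CPM none of 1682 genes was held within 2-fold, and the median SE was 0.75 on the log2 scale against 0.11 at 100 CPM and over. A further 4251 genes were neither called nor held within 2-fold, and about these the 4 libraries say little.

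**Figure D3:**
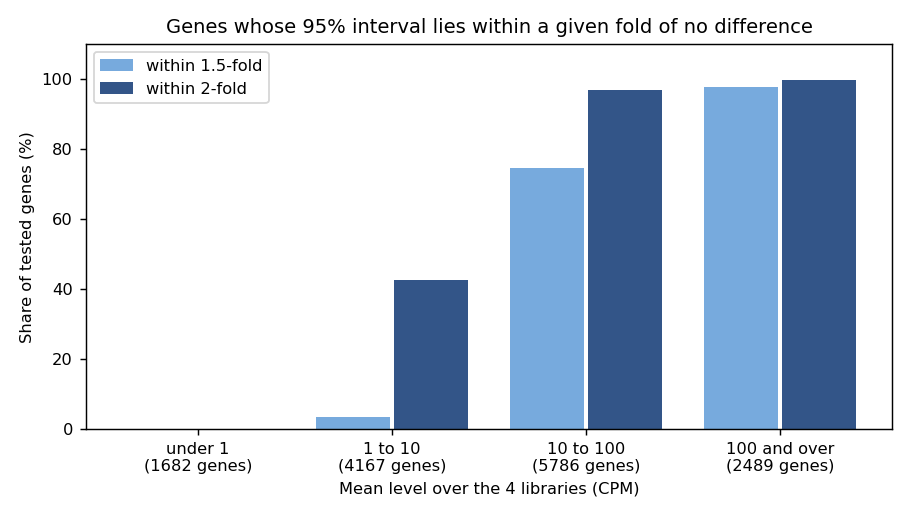
Share of tested genes (%) whose 95% interval for Sudan I against control lay within 1.5-fold or 2-fold of no difference, by mean level over the 4 libraries (CPM). The share within 1.5-fold was 0% under 1 CPM, 3.43% from 1 to 10, 74.7% from 10 to 100 and 97.7% at 100 CPM and over.

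Functions were then described over 52 gene lists with 1666 genes in the table, of which 1552 were tested. Of these, 1042 (67.1%, against 48.8% of all tested genes) were held within 1.5-fold and 1329 (85.6%, against 69.9%) within 2-fold, and 1, Tex15, was called by edgeR. The lists were not matched in level to all genes, and the held share depended on level. The median log2 fold change of a list lay within 0.1 of 0 for 48 of the 52. The remaining 4 were the immediate early genes at -0.39, conjugation and export of foreign compounds at 0.11, cholesterol synthesis at 0.14 and markers of theca, stroma and surface epithelium at 0.17. The last of these was 0.02 without control library 2 and -0.03 with a filter of at least 1 CPM in 2 libraries.

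**Figure D4:**
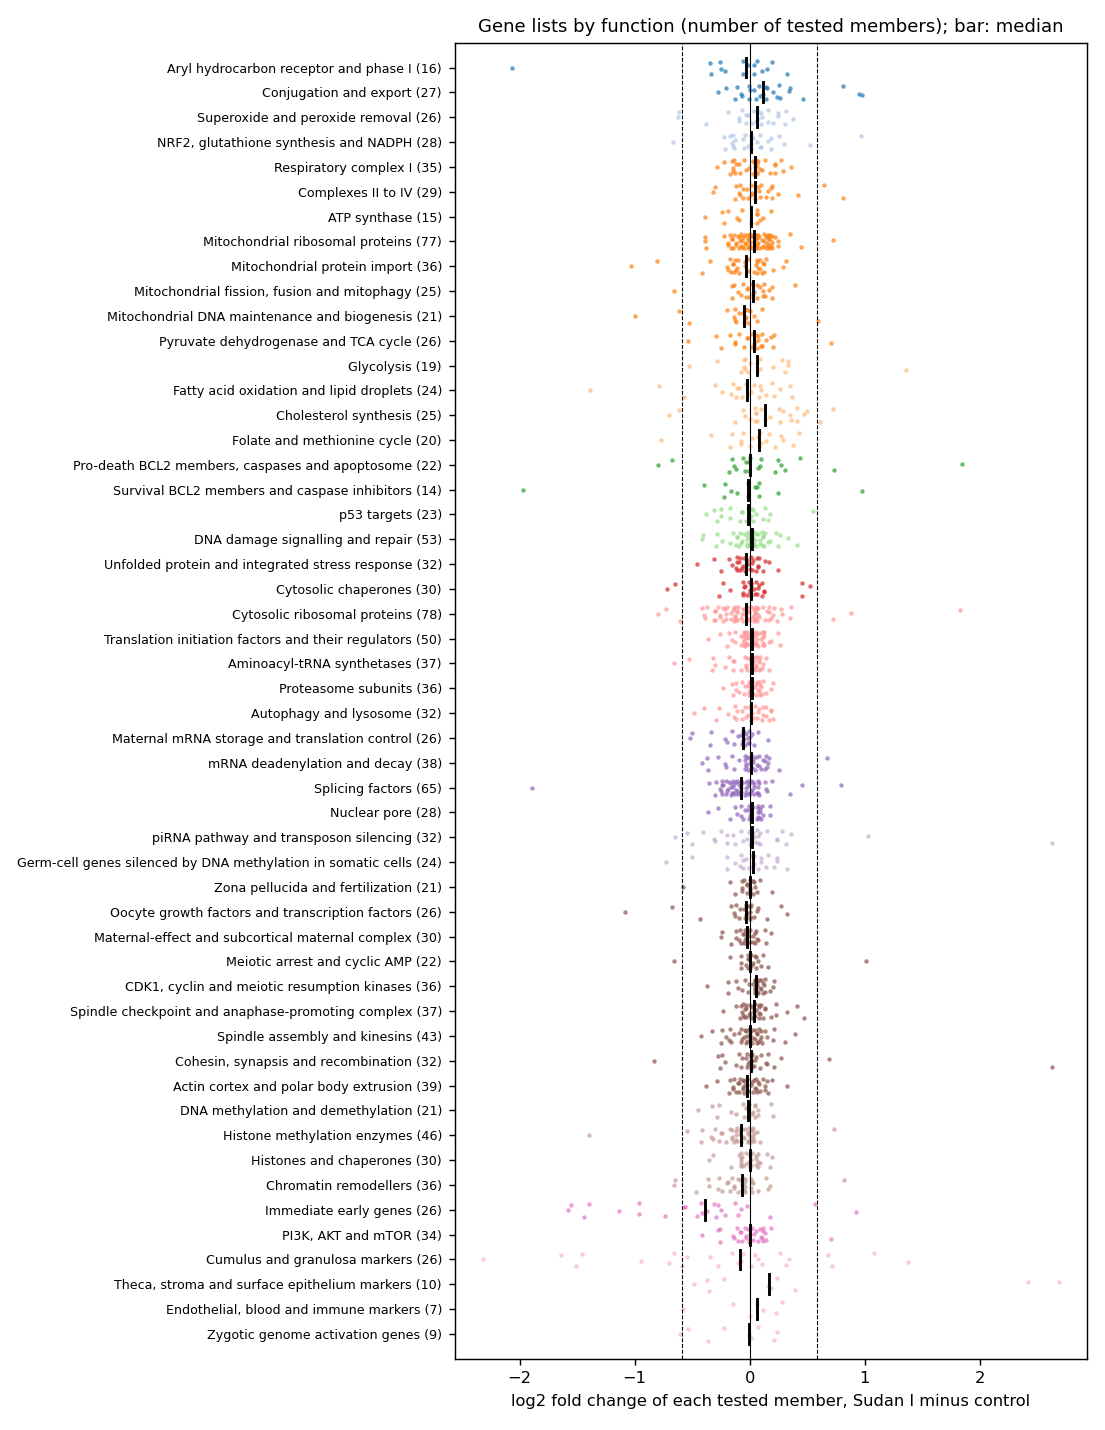
Log2 fold change (Sudan I minus control) of each tested member of the 52 lists, 1 point per gene, with the number of tested members in brackets, a black bar at the list's median and dashed lines at a 1.5-fold difference. Medians ran from -0.39 (immediate early genes) to 0.17 (theca, stroma and surface epithelium markers, -0.03 with a filter of at least 1 CPM in 2 libraries), and 48 of the 52 lay within 0.1 of 0.

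The receptor and first-phase metabolism of foreign compounds showed no called gene. Cyp1a1, the P450 enzyme most strongly induced through this receptor in liver, had 0 counts in all 4 libraries, which allows up to 0.114 to 0.137 CPM per library (3 counts, counting error only). Cyp1b1, the sister enzyme, stood at 6.29 and 7.58 CPM in control and 6.49 and 7.75 CPM in Sudan I libraries, the groups overlapping. Tiparp, a receptor target that feeds back on it, stood at 838 and 691 CPM and then 848 and 803 CPM, and its interval was held within 1.5-fold, as was that of Ahr itself (65.6 and 76.1 CPM, then 63.0 and 73.6 CPM). Arnt stood at 103 and 109 CPM in control and 86.9 and 80.5 CPM in Sudan I libraries, without overlap but with an unadjusted p of 0.097. In the list, 7 of 16 tested members were higher and 8 were held within 1.5-fold, with 1 at an unadjusted p under 0.05: Arnt2, at 0.126 to 1.03 CPM. Among conjugating enzymes and exporters 19 of 27 tested members were higher (70.4%, against 49.4% of all genes) with a median of 0.11, but 8 were held within 1.5-fold. The median of the list relative to the mean of the 4 libraries was -0.01 and -0.04 in control and -0.05 and 0.18 in Sudan I libraries, so that Sudan I library 2 alone stood above control. Without it the median was 0.05, with 16 members higher. Of this list Sult4a1, a sulfotransferase-like gene, had an unadjusted p of 0.022 at 18.1 and 15.9 CPM in control and 21.3 and 25.5 CPM in Sudan I libraries, while the glutathione transferase Gsta4 and the exporters Abcb1b and Abcc1 were held within 1.5-fold.

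Of the genes that remove superoxide and peroxide, 16 of 26 tested members were higher and the median was 0.06. Within 1.5-fold 14 were held (53.8%, against 48.8% of all tested genes), and within 2-fold 21 (80.8%, against 69.9%). The median was 0.01 when Sudan I library 2 was left out and -0.01 when control library 2 was. Prdx1, an abundant peroxiredoxin, was the member with an unadjusted p under 0.05, at 252 and 254 CPM in control and 294 and 337 CPM in Sudan I libraries (log2 fold change 0.32, SE 0.14, edgeR adjusted p = 0.9999). Glrx, a glutaredoxin, and Txnip, which binds thioredoxin, had log2 fold changes of 0.16 (SE 0.09) and 0.16 (SE 0.10) and were held within 1.5-fold, as was Prdx2 at 0.11 (SE 0.13). Gpx4, which reduces lipid peroxides, stood at 4.83 and 4.50 CPM and then 5.40 and 5.32 CPM, and was not held within 1.5-fold. Of NRF2, its inhibitor and the genes of glutathione and NADPH, 15 of 28 were higher, 17 were held within 1.5-fold and none had an unadjusted p under 0.05. Nfe2l2, which encodes NRF2, had a log2 fold change of -0.04 (SE 0.19) and Keap1, its inhibitor, 0.06 (SE 0.17). Slc7a11, the cystine importer, G6pdx and Me1, which make NADPH, were held within 1.5-fold.

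Mitochondrial genes of the nucleus were measured as unchanged for the most part. Over 8 lists, 178 of 264 tested genes (67.4%, against 48.8% of all tested genes) were held within 1.5-fold and 238 (90.2%, against 69.9%) within 2-fold. Of the 264, 143 were higher, none was called, and 3 (1.14%, against 3.16% of all genes) had an unadjusted p under 0.05. The held share depends on level, and the lists' median levels ran from 15.3 to 66.7 CPM. Of all genes from 10 to 100 CPM, 74.7% were held within 1.5-fold. Respiratory complex I had 23 of 35 subunits within 1.5-fold and a median of 0.04, complexes II to IV 19 of 29 and 0.05, and the ATP synthase 10 of 15 and 0.02. The sign of these 3 medians changed with the library left out. Without Sudan I library 2 they were -0.01, -0.04 and -0.16, with 16, 12 and 4 members higher. Without Sudan I library 1 they were 0.08, 0.17 and 0.08, with 25, 23 and 10 higher. Without control library 2 they were -0.03, -0.01 and 0.02, with 14, 14 and 8 higher. Atp5b, the catalytic subunit of the synthase, stood at 277 and 266 CPM in control and 283 and 286 CPM in Sudan I libraries. The groups did not overlap, yet the interval was held within 1.5-fold. Of the mitochondrial ribosome 52 of 77 proteins were held within 1.5-fold, with Mrpl9 (80.4 and 52.1 CPM, then 93.7 and 125 CPM) at an unadjusted p of 0.012.

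For protein import 19 of 36 genes were held within 1.5-fold, and for fission, fusion and mitophagy 19 of 25, with the fission receptor Mff at a log2 fold change of 0.20 (SE 0.12) and the transport adaptor Rhot1 at 0.12 (SE 0.10). In maintenance of mitochondrial DNA 5 of 21 members were higher, with a median of -0.05; the count was 10 without Sudan I library 1 and 9 without control library 2. Polg2, the accessory subunit of the mitochondrial DNA polymerase, stood at 2.37 and 1.64 CPM and then 1.05 and 0.947 CPM (unadjusted p = 0.049), and Nrf1 and Sirt1 were held within 1.5-fold. Of pyruvate dehydrogenase and the TCA cycle 21 of 26 were held within 1.5-fold, citrate synthase (Cs) standing at 346 and 352 CPM and then 357 and 352 CPM. Pdk1, a kinase that inhibits pyruvate dehydrogenase, stood at 13.2 and 13.6 CPM in control and 17.0 and 26.6 CPM in Sudan I libraries (log2 fold change 0.70, SE 0.23, unadjusted p = 0.012).

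In metabolism outside the mitochondrion the list of cholesterol synthesis had 20 of 25 members higher (80%, against 49.4% of all genes) and a median of 0.14, with 13 held within 1.5-fold and none called. Without Sudan I library 2 the median was 0.08 and without Sudan I library 1 it was 0.21. Leaving out 1 library at a time left 16 to 22 members higher. Its regulators Srebf2 and Srebf1, which switch on the pathway's enzymes, had unadjusted p under 0.05: Srebf2 stood at 28.0 and 31.5 CPM in control and 37.6 and 41.7 CPM in Sudan I libraries (log2 fold change 0.41, SE 0.14), and Srebf1 at 143 and 134 CPM and then 159 and 172 CPM (0.25, SE 0.10). Cyp51, a demethylase of the pathway, had 0.62 (SE 0.29), while Fdft1, which makes squalene, at 0.14 (SE 0.09), and Hmgcs1, an early enzyme, at 0.05 (SE 0.11), were held within 1.5-fold. Granulosa cells are known to supply oocytes with cholesterol products; their part in this difference was not tested. Glycolysis had 11 of 19 members higher, with Ldhb, the abundant lactate dehydrogenase, at 0.09 (SE 0.10) and Hk2, a hexokinase at 1.19 and 0.915 CPM and then 1.84 and 3.56 CPM, at an unadjusted p of 0.027. Fatty acid oxidation had 11 of 24 higher (17 without control library 2) and the folate and methionine cycle 13 of 20, with Slc19a1, the folate carrier, at 0.43 (SE 0.17).

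Cell death genes gave no call in either direction. Of pro-death BCL2 members, caspases and the apoptosome 11 of 22 tested members were higher and the median was 0.00, with 8 held within 1.5-fold and 14 within 2-fold. The initiator caspase gene Casp9 stood at 12.9 and 14.5 CPM in control and 14.0 and 12.4 CPM in Sudan I libraries, and the groups overlapped. Pmaip1, which encodes the killer protein NOXA, was at 0.638 and 0.229 CPM in control and 0.544 and 2.57 CPM in Sudan I libraries, so its log2 fold change of 1.85 (SE 0.81, unadjusted p = 0.044) came from 1 library. Of survival genes 6 of 14 were higher and 8 were held within 1.5-fold: Bcl2l10, the abundant BCL2 relative of oocytes, stood at 1610 and 1448 CPM and then 1596 and 1567 CPM, and Mcl1 had -0.11 (SE 0.20). Bag3, a co-chaperone with anti-death roles, was at 1.87 and 1.87 CPM and then 0.670 and 0.271 CPM (unadjusted p = 0.032). The p53 list had 10 of 23 higher and none at an unadjusted p under 0.05; Cdkn1a, its best-known target, was at 0.461 to 1.35 CPM and its 95% interval ran from 0.359-fold to 3.34-fold. Of DNA damage signalling and repair 41 of 53 were held within 1.5-fold and 50 within 2-fold, the checkpoint kinase Chek1 at 0.02 (SE 0.12) and the repair gene Brca2 at -0.17 (SE 0.16) among them.

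Most genes of protein folding and turnover were held within 1.5-fold, against 48.8% of all tested genes. Cytosolic ribosomal proteins were held less often (43.6%). The unfolded protein and integrated stress response had 24 of 32 members within 1.5-fold, with the chaperones Calr at -0.02 (SE 0.10) and Hsp90b1 at -0.11 (SE 0.12) and the sensor Ern1 at -0.04 (SE 0.16). Cytosolic chaperones had 23 of 30 within 1.5-fold; Hspa1b, the inducible HSP70, stood at 11.9 and 11.8 CPM and then 15.2 and 18.9 CPM (unadjusted p = 0.019), but its near-identical copy Hspa1a makes its count uncertain, and Cct6a, a subunit of the TRiC chaperonin, at 19.6 and 29.3 CPM and then 14.8 and 16.5 CPM. Proteasome subunits had 31 of 36 within 1.5-fold, translation initiation factors and their regulators 43 of 50, aminoacyl-tRNA synthetases 26 of 37, and autophagy and lysosome genes 25 of 32. Cytosolic ribosomal proteins had 34 of 78 within 1.5-fold and 34 of 78 higher; the list's median level was 9.94 CPM, and many of its genes have processed pseudogenes that can take reads. Rpsa, of the small subunit, stood at 30.0 and 20.3 CPM in control and 37.2 and 55.4 CPM in Sudan I libraries (log2 fold change 0.88, SE 0.22, edgeR adjusted p = 0.9999).

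Of the genes that act on RNA, 63 of 157 tested over 4 lists were higher, and 130 were held within 1.5-fold. Splicing factors had 21 of 65 higher (32.3%, against 49.4% of all genes) and a median of -0.08 (-0.03, with 27 higher, without Sudan I library 2), yet 54 were held within 1.5-fold; Hnrnpu, a nuclear RNA-binding protein, stood at 156 and 158 CPM and then 133 and 132 CPM (-0.24, SE 0.09). The genes that store and mask maternal messages had 5 of 26 higher (8 without Sudan I library 1), a median of -0.06 and 21 within 1.5-fold. Ddx6, a helicase of RNA storage bodies, stood at 110 and 154 CPM in control and 88.7 and 95.8 CPM in Sudan I libraries (-0.52, SE 0.17, unadjusted p = 0.011), and Pabpc1, a poly(A)-binding protein, at 86.4 and 113 CPM and then 72.3 and 85.3 CPM. Their oocyte-specific partners were held within 1.5-fold: Cpeb1, which governs polyadenylation of stored messages, had -0.01 (SE 0.10), Lsm14b -0.07 (SE 0.10) and Eif4e1b -0.08 (SE 0.10). Deadenylation and decay had 29 of 38 within 1.5-fold, with Btg4, the adaptor that triggers maternal message decay, at 0.12 (SE 0.11), and the nuclear pore 26 of 28.

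Transposon silencing was the function to which Tex15 belongs in the male germ line, and its other genes were compared. Of 32 tested members 17 were higher and 18 were held within 1.5-fold; after Tex15 the largest fitted difference was that of Gtsf1l, at 1.03 (SE 0.68). Exd1, a piRNA biogenesis factor, stood at 91.0 and 92.1 CPM in control and 75.1 and 62.9 CPM in Sudan I libraries (-0.41, SE 0.12, unadjusted p = 0.0072), and Piwil2, a PIWI protein, at 15.2 and 29.0 CPM and then 13.9 and 14.3 CPM (-0.65, SE 0.27). Tdrd12, a Tudor protein, was higher (194 and 182 CPM, then 222 and 221 CPM). Tdrd1, Trim28 and Setdb1 were held within 1.5-fold. Among germ-cell genes that are silenced by DNA methylation in somatic cells, 13 of 24 were higher, 16 were held within 1.5-fold and none had an unadjusted p under 0.05; Dazl stood at 440 and 372 CPM and then 468 and 439 CPM.

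Most genes that define the oocyte were held closely: over 9 lists, 233 of 285 tested (81.8%) lay within 1.5-fold. This share depends on level, as 97.7% of all genes at 100 CPM and over were so held and 74.7% of those from 10 to 100 CPM. Maternal-effect genes and the subcortical maternal complex had 28 of 30 members held within 1.5-fold and 30 of 30 within 2-fold. Zbed3 had -0.04 (SE 0.10), Nlrp14 0.00 (SE 0.10), Tle6 -0.02 (SE 0.09) and Nlrp5, which encodes MATER, -0.12 (SE 0.10); Dppa3, which protects the maternal genome from demethylation, stood at 624 and 652 CPM and then 677 and 774 CPM. Zona and fertilization genes had 17 of 21 within 1.5-fold, with the zona proteins Zp2 at -0.05 (SE 0.12) and Zp3 at -0.03 (SE 0.10). Growth and transcription factors had 18 of 26 (69.2%) at a median level of 189 CPM, Gdf9 at 0.00 (SE 0.10). Bmp15, its partner, stood at 4372 and 4456 CPM in control and at 4903 and 3382 CPM in the Sudan I libraries, which lay on either side of control.

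For the meiotic machinery, CDK1, cyclins and the kinases of meiotic resumption had 27 of 36 higher (75%, against 49.4% of all genes) with a median of 0.06 and 34 held within 1.5-fold. Without Sudan I library 1 the median was 0.03 with 20 higher, and without control library 2 it was 0.02 with 25 higher. Ccnb1, cyclin B1, had 0.18 (SE 0.12), Cdk1 0.12 (SE 0.10), Mos, the kinase that holds the egg at metaphase, 0.12 (SE 0.12), and Aurka 0.21 (SE 0.09, unadjusted p = 0.044), while Wee1, an inhibitor of CDK1, had -0.37 (SE 0.17). The spindle checkpoint and anaphase-promoting complex had 24 of 37 higher, 33 within 1.5-fold and 37 of 37 within 2-fold. Its 3 members at an unadjusted p under 0.05 were all higher: the kinetochore genes Spc25 (62.1 and 55.1 CPM, then 68.5 and 87.2 CPM) and Nuf2 (205 and 195 CPM, then 231 and 239 CPM), and Bub1b, the checkpoint kinase BUBR1 (1536 and 1363 CPM, then 1610 and 1796 CPM). Spindle assembly had 36 of 43 within 1.5-fold, the actin cortex 32 of 39, meiotic arrest and cyclic AMP 17 of 22, and cohesin, synapsis and recombination, the list that also holds Tex15, 19 of 32. Myh9, non-muscle myosin, had -0.29 (SE 0.12), and Rdx, a linker of actin to the membrane, -0.06 (SE 0.12).

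Of the 4 chromatin lists, 100 of 132 tested members (75.8%) were held within 1.5-fold, and 2 of the lists had most members lower than control. Histone methylation enzymes had 12 of 46 higher (26.1%) with a median of -0.08 and 33 within 1.5-fold, and chromatin remodellers 10 of 36 (27.8%) with a median of -0.06 and 28 within 1.5-fold. Without Sudan I library 2 these counts were 22 and 16. By library, the medians of the remodellers relative to the mean of the 4 libraries were 0.02 and 0.06 in control and 0.03 and -0.12 with Sudan I; those of histone methylation 0.01 and 0.05, then 0.02 and -0.09, so that the lower side was that of Sudan I library 2 in both. Chd5, a remodeller, stood at 17.5 and 25.95 CPM and then 17.1 and 10.6 CPM. The methyltransferase Ezh2 had 0.03 (SE 0.09), the maintenance DNA methyltransferase Dnmt1 -0.16 (SE 0.10), and the oocyte linker histone H1foo 0.01 (SE 0.09); histones and their chaperones had 25 of 30 within 1.5-fold and 30 of 30 within 2-fold.

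Immediate early genes, which are induced within minutes by growth and stress signals, were the list farthest from 0. Of 26 tested members 3 were higher (11.54%, against 49.4% of all genes), the median was -0.39, and 1 was held within 1.5-fold, against 48.8% of all genes. None was called by edgeR, DESeq2 or limma-voom, whereas edgeR with no count filter called 6: Fos, Fosb, Jun, Egr1, Ier2 and Nr4a1. That fit called 88 of 18913 genes, and its median degrees of freedom were 56739 against 10.3 with the filter. A gene's own spread between libraries therefore counted for little in its calls. In 9 members both Sudan I libraries were below both control libraries (all genes: 15.9%), and in 2 they were above (all genes: 16.1%). Egr1 stood at 91.0 and 101 CPM in control and 65.1 and 64.3 CPM in Sudan I libraries, with both exposed libraries alike. Jun, a subunit of the AP-1 transcription factor, stood at 20.4 and 32.7 CPM and then 11.2 and 6.49 CPM (-1.58, SE 0.68, unadjusted p = 0.043). Its partner Fos stood at 25.7 and 35.5 CPM and then 20.8 and 6.90 CPM, Fosb at 26.3 and 45.2 CPM and then 26.5 and 10.2 CPM, and Nr4a1, a nuclear receptor, at 6.97 and 13.2 CPM and then 6.62 and 0.766 CPM. Sudan I library 2 was the lowest of the 4 in Jun, Fos, Fosb, Nr4a1, Ier2 and Junb, and Sudan I library 1 reached the first control library in Fosb. Dusp1, a phosphatase of the same class, was held within 1.5-fold. The median of the list relative to the mean of the 4 libraries was 0.22 and 0.29 in control and -0.09 and -0.29 in Sudan I libraries, and leaving out 1 library at a time gave medians from -0.57 to -0.34, with 6 members higher without Sudan I library 1, 7 without Sudan I library 2, 7 without control library 1 and 5 without control library 2.

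Markers of cumulus and granulosa cells stood beside this list with 11 of 26 tested members higher and a median of -0.09; their library medians were -0.02 and 0.09 in control and 0.04 and -0.14 in Sudan I libraries, the lowest again in Sudan I library 2. The list's median was -0.34 with 8 higher without Sudan I library 1 and -0.03 with 12 without Sudan I library 2. It was -0.20 with 10 higher without control library 1 and 0.00 with 13 without control library 2. Amh, the anti-Müllerian hormone of granulosa cells, stood at 19.24 and 21.2 CPM in control and 7.87 and 6.85 CPM in Sudan I libraries (log2 fold change -1.46, SE 0.47, unadjusted p = 0.012). Inha, inhibin alpha, stood at 41.8 and 56.7 CPM and then 41.5 and 21.1 CPM, and Gja1, the granulosa connexin, at 37.6 and 41.7 CPM and then 37.6 and 12.7 CPM, with Sudan I library 1 at the level of the first control library in both. Wt1, a transcription factor of granulosa precursors, was at 2.87 and 5.87 CPM and then 0.921 and 1.89 CPM. Against these, Serpine2 and Nr5a2 were held within 1.5-fold, and Cdh2 was higher (16.5 and 17.9 CPM, then 29.1 and 25.9 CPM). Esr2 was also higher (96.0 and 75.9 CPM, then 106 and 100 CPM). The part of attached cumulus or granulosa cells in the immediate early difference was not tested, and in bulk libraries fewer such cells and less RNA per cell cannot be told apart. The summed level of the 13 granulosa markers was 631 and 679 CPM in control and 653 and 652 CPM in Sudan I libraries. Serpine2, Nr5a2, Esr2 and Gata4, singled out after their levels were seen, made up 86.5% of it. The remaining 9 markers summed to 92.5 and 115 CPM in control and 87.0 and 58.0 CPM in Sudan I libraries. Between Sudan I library 1 and the first control library this gap was smaller than that of Amh alone (7.87 against 19.24 CPM). Of these 9, Amh, Inha, Wt1 and Foxl2 were lower in both Sudan I libraries (all genes: 15.9%). The nearest libraries of the 2 groups were barely apart in Inha (41.5 against 41.8 CPM) and Foxl2 (3.74 against 3.83 CPM). Cyp19a1 was higher in both Sudan I libraries (all genes: 16.1%), at 13.6 and 11.7 CPM and then 15.8 and 16.2 CPM. Fst, Fshr, Cyp11a1 and Inhba overlapped between the groups, so the lower sum was not shared by all of the 9. The summed level of the 31 listed immediate early genes was 404 and 462 CPM, then 322 and 292 CPM.

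**Figure D5:**
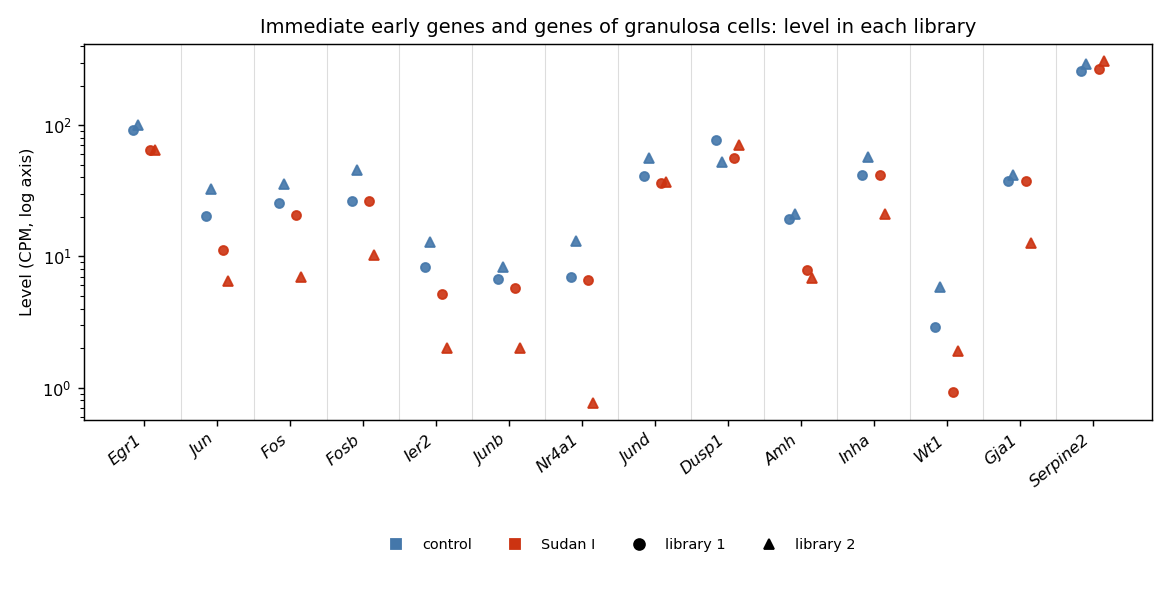
Level of 9 immediate early genes (Egr1 to Dusp1) and 5 genes of granulosa cells (Amh to Serpine2) in each control and Sudan I library (CPM, log axis), circles for library 1 and triangles for library 2. Egr1 and Amh were lower in both Sudan I libraries, whereas Fosb, Inha and Gja1 were low in Sudan I library 2 (10.2, 21.1 and 12.7 CPM) with Sudan I library 1 at the level of the first control library.

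Markers of theca, stroma and surface epithelium had 6 of 10 tested members higher, 5 without control library 2. The difference lay in genes near the limit of detection: Cyp17a1, a steroid enzyme of theca cells, was at 0.0912 and 0.191 CPM in control and 0.963 and 0.947 CPM in Sudan I libraries (unadjusted p = 0.0043, edgeR adjusted p = 0.9999), and Col3a1, a collagen of stroma, at 0.137 and 0.0762 CPM and then 0.712 and 0.451 CPM. Pdgfra, another stromal marker, overlapped between the groups, and none of the 10 was held within 1.5-fold. Endothelial, blood and immune markers had 5 of 7 higher (3 without Sudan I library 1) with Pecam1 at 0.01 (SE 0.13), and genes of zygotic genome activation 4 of 9 with none at an unadjusted p under 0.05. The PI3K, AKT and mTOR list had 26 of 34 within 1.5-fold, with the oocyte dormancy factor Foxo3 at 0.00 (SE 0.15). Its 34 genes include Pdk1, the kinase of pyruvate dehydrogenase, which is not a member of this pathway. Pdk1 was not held within 1.5-fold and had the list's highest log2 fold change (0.70).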

How the data were processed

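The deposited table holds raw read counts per gene symbol, 1 column per library and 24369 rows, made by the authors from standard Illumina libraries, per the labels; of aligner, counter and build the sources used here say nothing. Dates replaced the symbol in 27 rows; these held 0.249% to 0.272% of the counts of the 4 libraries, and the 23 that passed the filter were tested but not named. Genes of the mitochondrial genome are not analysed here.

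The tests ran in edgeR 4.0.16 under R 4.3.3: filterByExpr (minimum count 10), trimmed mean of M-values scaling, and 1 quasi-likelihood fit of all 6 libraries with 1 mean for each group (3 residual degrees of freedom). The contrast was Sudan I minus control, and a gene was called at a Benjamini-Hochberg adjusted p under 0.05 over 14124 genes. The 95% intervals come from the same fit, whose steps were tested on simulated data. With 2 libraries against 2, the smallest two-sided p of an exact permutation test is 0.333, so none was run. DESeq2 1.42.0 and limma 3.58.1 were alternatives. The gene lists and members were chosen with earlier results of these data known, and 4 symbols were removed from 3 lists after medians were seen, because they were not members of the complex named.

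Genes were named by a rule: those called by edgeR or DESeq2, the smallest p among genes of at least 5 CPM whose groups did not overlap, up to 3 members with the smallest p and 3 with the highest level per list, and a fixed set of genes of the dye response, stress, death and the oocyte. Not every gene the rule names is reported here. Others in the text, such as Fos, Fosb, Nr4a1, Junb, Tdrd12, Setdb1 and Inha, were named after their values were seen. Positions are from GENCODE M21 (GRCm38), which may differ from the build behind the counts; 23211 symbols matched directly, 763 as synonyms and 395 not at all.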

Additional observations from a re-analysis of the deposited data

How the results depend on the processing

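Tex15 was called under all 12 alternatives run, with adjusted p from 1.19e-57 (no count filter) to 0.00614 (without control library 2). The number of called genes was 12 with DESeq2 and 88 of 18913 tested with no count filter, where the median degrees of freedom rose from 10.3 to 56739 (36 of the 88 were higher); it was 2 to 3 when 1 library was left out. Leaving out control library 1 added Fmo5 and Tnfsf10, control library 2 Gm13103, Sudan I library 1 Mb21d2 and Nipal2, and Sudan I library 2 Ampd3; each fit then assumed that the lone library varies like the other groups. The cause of these differences was not tested. The number held within 1.5-fold ran from 4723 to 7246 and within 2-fold from 8590 to 10319. The labels' replicate numbers did not pair the libraries (correlation of same-numbered deviations 0.0531); with the replicate block 1 gene, Tex15, was called, with 7150 held within 1.5-fold. The 11 genes called by DESeq2 alone were called by edgeR with no count filter, but not by edgeR with it, by limma-voom, with either scaling, with 4 libraries or with the block; Mb21d2 and Nipal2 were called without Sudan I library 1. The 88 include 18 members of the lists, 6 of them immediate early genes. Among uncalled named genes the sign changed in 162 of 3904 comparisons. The medians of 18 of 52 lists kept their sign in all 12 alternatives, 9 higher and 9 lower, the immediate early genes and cholesterol synthesis among them. Scaling moved the median of all genes by less than 0.01 on the log2 scale. Depth limits genes under 10 CPM, and 2 libraries per group limit all of them.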
